A study of Mus musculus with 40 samples.

Results

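The collagen chains are the polypeptides, each named for its collagen type and chain number, that wind together in sets to make the collagens of the vessel wall. They were picked out by name, with earlier results of these data known. The rule took every gene whose symbol is Col, a number, the letter a and a number, listed in at least 1 of the 2 experiments. This gave 40 chains among 17809 genes listed, 40 of 17402 in the first experiment and 37 of 15399 in the second, where Col9a1, Col25a1 and Col26a1 were not listed. All of the listed chains passed the filter on low values. That filter also kept all 14424 protein-coding genes of the first experiment and 13738 of 13741 in the second.

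Collagens are built in the endoplasmic reticulum, where prolines and lysines of the chains are hydroxylated before the triple helix folds, and are trimmed by proteases after they leave the cell. In the aorta, fibrillar types I, III and V (Col1a1, Col1a2, Col3a1, Col5a1, Col5a2) form the fibres that bear load at high pressure, and type IV chains (Col4a1 to Col4a6) form the sheet of the basement membrane that surrounds smooth muscle cells and underlies the endothelium. Type VI (Col6a1, Col6a2, Col6a3) makes beaded filaments, types XV and XVIII (Col15a1, Col18a1) lie at basement membranes and release endostatin-like fragments, and types XII, XIV and XVI (Col12a1, Col14a1, Col16a1) attach to the surface of fibrils.

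RNA-seq was performed on mouse aorta in 2 experiments on the phosphatase calcineurin and angiotensin II (Ang-II), the hormone that raises blood pressure. In the genotype experiment, male mice received tamoxifen at 1 mg daily for 5 days, and aortas were taken 6 weeks later without Ang-II or after 2, 6 or 24 h of Ang-II at 1 µg/kg/min from an osmotic minipump. SM-Cn-/- mice had a floxed CnB1 gene (Ppp3r1, the regulatory subunit of calcineurin) and Myh11-CreERT2, a recombinase that tamoxifen switches on in smooth muscle cells. The labels of all Cn-Ctl libraries give the floxed gene without Myh11-CreERT2, while the study's methods also count mice with unfloxed Cnb1wt/wt and Myh11-CreERT2 among Cn-Ctl, and whether any Cn-Ctl library held such mice is not given in the sources used here. Both genotypes received the drug. Cn-Ctl had 2 libraries untreated, 3 at 2 h, 3 at 6 h and 2 at 24 h, and SM-Cn-/- had 3 at each time. The authors had discarded 1 untreated Cn-Ctl replicate because it lay far from the other 2 in a principal component analysis. In the CsA experiment, wild-type C57BL/6J males carried a pump with cyclosporin A, the calcineurin inhibitor (CsA), at 5 mg/kg/d for 5 days or no pump (WT), and aortas were taken untreated or after 2 or 24 h of the same Ang-II dose, 3 libraries a group. The mice were 10 to 12 weeks old when tamoxifen or CsA was started, and each library was a pool of 3 aortas stripped of adventitia and perivascular tissue. By the study's methods, control mice had surgery without a pump, so that Ang-II and its pump cannot be told apart. Ang-II-treated Cn-Ctl, WT and CsA mice were kept only above a systolic pressure of 130 mmHg. The SM-Cn-/- mice treated beside them were not selected by pressure, so that this choice and the deletion cannot be told apart. The study also removed any SM-Cn-/- mouse in which deletion of CnB1 could not be shown. CsA mice were removed where the thymus did not show a block of dephosphorylation of NFAT, a substrate of calcineurin.

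The libraries held 2728007 to 10250178 reads in the genotype experiment (median 6519082) and 18976266 to 38900009 in the CsA experiment (median 22815607), so that counting error for weak chains was smaller in the second. Values are the authors' signal, scaled reads per 1000000, which is not corrected for gene length. Ppp3r1 signal overlapped between SM-Cn-/- and Cn-Ctl at every time, from 48.85 to 83.54 against 78.75 to 103.9 without Ang-II, and whole-gene values do not separate the deleted exons. The study checked the deletion by PCR on a piece of aortic tissue. It also reported loss of CnB protein, and a drop of the catalytic subunit CnA, in aortic extracts of SM-Cn-/- mice by immunoblot. Smooth muscle markers (Myh11, Acta2 and 4 others) summed to 20880 or more in every genotype library, the labelled tissue, and to 16240 or more in every CsA library.

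Collagen chains took 0.722% to 1.47% of all signal in the genotype libraries and 0.869% to 1.74% in the CsA libraries. Per kilobase of annotated exons, the order of mean signal in the genotype experiment began with Col1a2 (165.3), Col3a1 (161.6), Col18a1 (144.1), Col1a1 (141.6), Col6a1 (115.4), Col4a1 (110.7) and Col4a2 (90.2). In the CsA experiment it began with Col18a1 (293), Col1a1 (220.2), Col3a1 (182.5), Col4a1 (167), Col1a2 (159.7) and Col4a2 (151.9). In each experiment 15 chains had a mean signal of at least 100, while 7 chains of the genotype table and 3 of the CsA table lay under 1.

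Several chains are neighbours in the genome (GENCODE M21, GRCm38). Col4a1 and Col4a2 start head to head on chromosome 8 with overlapping starts, Col4a4 and Col4a3 start head to head 72 bases apart on chromosome 1, and Col4a6 and Col4a5 start head to head 1309 bases apart on chromosome X. Col3a1 and Col5a2 lie tail to tail on chromosome 1, 24615 bases apart, and without strand information reads of overlapping starts could be split between neighbours. RefSeq (GRCm38.p6) gave promoter windows, 250 bases before to 50 bases after a start, for 31 of the 40 chains, 34 windows in all. On either strand, the Sp1-type motif GGGCGG was in 22 of the 34 windows and in 35.7% of all 32851 promoters, CCAAT in 12 and 37.4%, and TATAAA in 3 and 13.6%. Shown here are the bases before the start, with those motifs in capitals (CCGCCC is GGGCGG on the other strand), for Col4a6 and Col4a5, neighbours whose signal both fell in WT aortas by 24 h of Ang-II, and for Col15a1 and Col5a1, which differed between SM-Cn-/- and Cn-Ctl at each time of Ang-II. They are Col4a6 on the minus strand (chrX:141474077-141474326), Col4a5 on the plus strand (chrX:141475169-141475384), Col15a1 on the plus strand (chr4:47207762-47208011) and Col5a1 on the plus strand (chr2:27886175-27886424).
Col4a6: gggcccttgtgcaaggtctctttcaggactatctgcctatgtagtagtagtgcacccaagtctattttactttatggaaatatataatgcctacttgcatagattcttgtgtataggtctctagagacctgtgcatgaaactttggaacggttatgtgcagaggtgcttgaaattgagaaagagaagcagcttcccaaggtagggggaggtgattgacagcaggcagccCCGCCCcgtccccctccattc
Col4a5: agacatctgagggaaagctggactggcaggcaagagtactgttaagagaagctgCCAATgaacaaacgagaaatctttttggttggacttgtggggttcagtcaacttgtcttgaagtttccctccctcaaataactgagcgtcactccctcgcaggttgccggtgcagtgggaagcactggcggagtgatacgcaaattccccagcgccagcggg
Col15a1: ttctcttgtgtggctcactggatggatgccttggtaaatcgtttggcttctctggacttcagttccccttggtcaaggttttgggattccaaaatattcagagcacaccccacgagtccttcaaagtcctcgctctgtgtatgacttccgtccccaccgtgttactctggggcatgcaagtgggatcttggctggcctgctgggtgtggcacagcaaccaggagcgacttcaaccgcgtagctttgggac
Col5a1: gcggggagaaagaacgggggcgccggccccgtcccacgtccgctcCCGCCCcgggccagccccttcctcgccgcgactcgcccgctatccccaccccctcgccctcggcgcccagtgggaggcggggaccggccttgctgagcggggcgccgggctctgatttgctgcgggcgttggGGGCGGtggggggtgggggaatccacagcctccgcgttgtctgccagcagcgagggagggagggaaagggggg
The Col15a1 stretch held none of the motifs, Col4a6 held 1 GGGCGG, Col4a5 held 1 CCAAT and Col5a1 held 2 GGGCGG.

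In Cn-Ctl aortas, 6 of 40 collagen chains were higher after 2 h of Ang-II than untreated (4.72% of all genes). The count was 5 after 6 h (2.72%) and 7 after 24 h (3.22%). Among these chains were the basement membrane chain Col4a1 and the endostatin-forming Col15a1 and Col18a1 at each time. The fibril-regulating Col5a2 was higher at 2 h and 24 h. Col4a6 and Col6a6 were lower at 24 h (2.39% of all genes), and the very weak Col13a1 at 2 h (1.51%). In SM-Cn-/- aortas, only Col18a1 was called higher, at 6 h and 24 h, and only Col6a3 lower, at 24 h. Fewer genes of any kind were called there: 0.984%, 1.5% and 0.638% higher at 2, 6 and 24 h, and 0.146%, 0.846% and 0.153% lower. Without a call at 2 h, the collagen share of all signal in SM-Cn-/- was 0.977% to 1.17%, against 0.785% to 0.905% untreated. In Cn-Ctl it was 1.05% to 1.47% at 2 h, against 0.839% to 0.910% untreated. A separate test of whether the response differed between the genotypes passed for Col15a1 and Col5a2 at 24 h, and for no chain at 2 h or 6 h. All calls are from limma on log2(signal + 0.5), with p-values adjusted over all 14424 genes tested (Benjamini-Hochberg) and a threshold of 0.05. Fold changes are on that log2 scale, which understates changes of weak genes. In any 1 comparison and direction, libraries of the compared groups did not overlap for 6.63% to 25.6% of all genes, so that separated libraries alone are common at these group sizes.

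Of all genes tested, 4.72% were called higher and 1.51% lower in Cn-Ctl at 2 h, 2.72% and 1.25% at 6 h, and 3.22% and 2.39% at 24 h. Beside these shares, the chains called were 6 higher and 1 lower at 2 h (median log2 fold change of the 40 chains 0.53, 35 above 0, against 0.01 for all genes), 5 higher at 6 h (median 0.22) and 7 higher and 2 lower at 24 h (median 0.31). At 24 h the calls by class were 1 of 10 fibrillar chains higher, 2 of 6 type IV chains higher and 1 lower, 2 of 8 fibril-associated chains higher, both endostatin-forming chains higher and 1 of 6 type VI chains lower. Counts depended on single libraries of these small groups: 2 chains remained at 2 h without either untreated library and 3 without 2 h replicate 1 or 2, 1 and 2 at 6 h without untreated replicate 2 and 3, and 3 or 4 at 24 h whichever library was left out. Library totals of signal were larger at 2 h (mean 1153300 against 960330), and after scaling to equal totals, a choice made after the data were seen, the median of all genes at 2 h was -0.22 and the split was 2 higher and 1 lower, as it was after quantile normalization; at 24 h the split under equal totals was 6 higher and 3 lower.

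Of the main fibrillar chains, Col1a1 of type I collagen was called in Cn-Ctl at 2 h only, and Col1a2 and Col3a1 at no time. Col1a1 signal was 708 and 519 in untreated Cn-Ctl, 988, 1139 and 1865 at 2 h, 1154, 1082 and 889.7 at 6 h and 1127 and 1274 at 24 h. Every treated library lay above the untreated ones, and the rise passed the test at 2 h (log2 fold change 1.08, SE 0.29, adjusted p = 0.0278) though not after scaling to totals, and not without untreated replicate 2 or 3 or 2 h replicate 3 (adjusted p 0.064, 0.34 and 0.13). In SM-Cn-/-, Col1a1 was 534, 734 and 772 untreated, 724, 783 and 985 at 2 h, 1224, 814 and 807 at 6 h and 835, 995 and 495 at 24 h, and those groups overlapped at 24 h.

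Col1a2, the partner of Col1a1 in type I collagen, was 1928 and 1691 in untreated Cn-Ctl, 2428, 2767 and 3805 at 2 h, 2347, 2299.5 and 1318 at 6 h and 2202 and 1587 at 24 h. SM-Cn-/- values were 1702, 1786 and 1699.6 untreated, 2489.8, 2433 and 2356 at 2 h, 2494, 1786 and 1501 at 6 h and 1664, 1854 and 1042 at 24 h. No Col1a2 change passed the test in either genotype, with Cn-Ctl at 24 h at 0.05 (95% interval -0.61 to 0.71). The log2 ratio of Col1a1 to Col1a2 was -1.70 to -1.45 in untreated Cn-Ctl and -0.97 to -0.32 at 24 h, and -1.67 to -1.14 and -1.08 to -0.90 in SM-Cn-/-.

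Col3a1, the sole chain of type III collagen, was 1615 and 1501 in untreated Cn-Ctl, 1821, 2263 and 3624 at 2 h, 1951, 1788 and 959 at 6 h and 2225 and 1745 at 24 h. Its SM-Cn-/- signal was 1323, 1267 and 1332 untreated, 1800.3, 1716 and 1774 at 2 h, 1523, 920.3 and 999 at 6 h and 934, 1109 and 705 at 24 h. At 24 h every SM-Cn-/- library lay below both Cn-Ctl libraries and below its own untreated group, and the genotypes differed (-1.13, SE 0.30, adjusted p = 0.0305), a call lost without Cn-Ctl 24 h replicate 2 or 3 or SM-Cn-/- 24 h replicate 1 or 3 (adjusted p 0.14, 0.10, 0.071 and 0.12). The difference in response was -0.88 (adjusted p = 0.455).

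**Figure D1:**
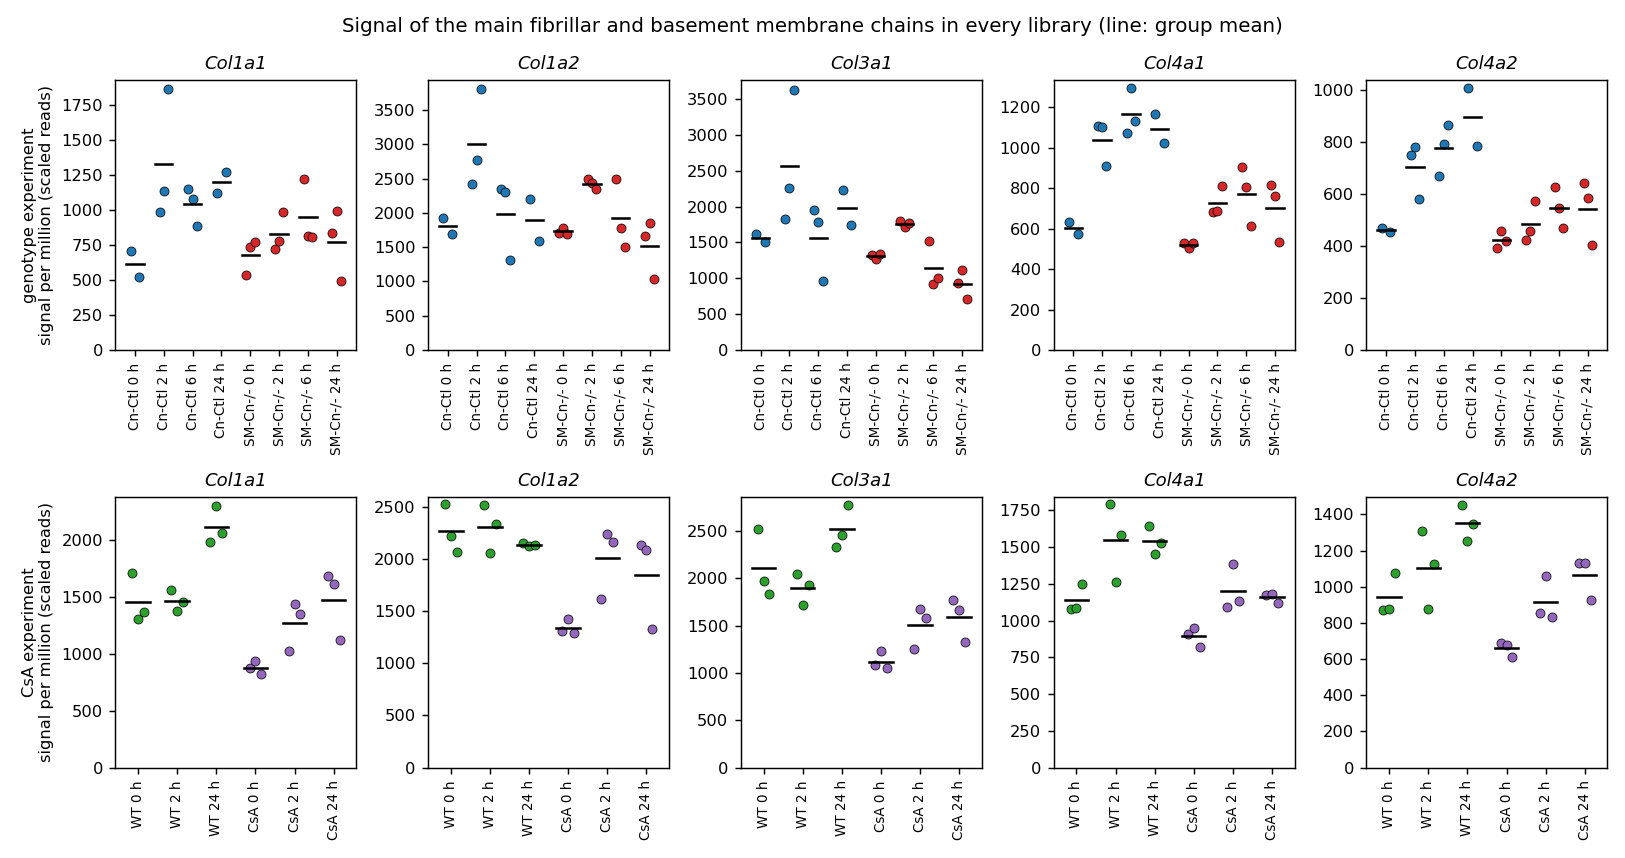
Signal (scaled reads per 1000000, linear axes) of Col1a1, Col1a2, Col3a1, Col4a1 and Col4a2 in each library of both experiments, with a line at each group mean and 0 h for aortas without Ang-II. Col4a1 and Col4a2 are higher at 24 h than at 0 h in Cn-Ctl and WT, and all 5 chains sit lower in CsA than in WT at 0 h.

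Col5a2, a chain of type V collagen that helps set fibril diameter, kept its Cn-Ctl calls throughout. Its signal was 247 and 278 untreated, 516, 557 and 733 at 2 h, 453, 559.6 and 334 at 6 h and 800.4 and 629.7 at 24 h. All treated libraries were above the untreated ones, with a log2 fold change of 1.18, SE 0.22, adjusted p = 0.00108 at 2 h and 1.44, SE 0.24, adjusted p = 0.00102 at 24 h, and both calls held under each alternative and with each library left out. In SM-Cn-/- it was 281, 335 and 249.6 untreated, 399.9, 384 and 384 at 2 h, 371, 331 and 236 at 6 h and 304, 304 and 284 at 24 h, and the untreated and 24 h groups overlapped. Without Ang-II the genotypes differed by 0.13 (95% interval -0.32 to 0.58), which did not pass, and at 24 h the difference passed (-1.25, SE 0.22, adjusted p = 0.00129).

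Col5a1, the partner chain of type V, was 244 and 272 in untreated Cn-Ctl, 309, 343 and 398 at 2 h, 266, 292 and 336 at 6 h and 393 and 344 at 24 h. Col5a1 in SM-Cn-/- was 193, 190.0 and 216 untreated, 212, 242 and 249 at 2 h, 233, 182 and 179 at 6 h and 215, 198 and 232 at 24 h. Every SM-Cn-/- library was below every Cn-Ctl library of the same time, also without Ang-II, where the difference of -0.37 did not pass the test (adjusted p = 0.932). It passed at 2 h (-0.57, adjusted p = 0.0294), 6 h (-0.59, adjusted p = 0.0362) and 24 h (-0.78, adjusted p = 0.0068), where it was 0.0505 without Cn-Ctl 24 h replicate 2. At 2 h and 6 h it did not pass with 4 of the 6 libraries left out in turn. The difference in response did not pass at any time (-0.41 at 24 h, 95% interval -0.89 to 0.08). The log2 ratio of Col5a1 to Col5a2 in Cn-Ctl averaged -0.02 untreated and -0.95 at 24 h, and in SM-Cn-/- -0.52 and -0.47.

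Col15a1, a basement membrane chain made by smooth muscle and endothelium, had the lowest adjusted p of the 40 chains between the genotypes at each time of Ang-II. Cn-Ctl signal was 259.9 and 280.1 untreated, 540.3, 539 and 662 at 2 h, 521, 813 and 534 at 6 h and 539.6 and 435 at 24 h. SM-Cn-/- signal was 191, 227 and 211 untreated, 208, 211 and 228 at 2 h, 216, 199 and 122 at 6 h and 133, 135 and 126 at 24 h. Cn-Ctl rose with Ang-II at every time (log2 fold change 1.10, 1.17 and 0.84; adjusted p = 0.00213, 0.0021 and 0.037). At 6 h the call was lost without untreated replicate 2 (0.052) and at 24 h whichever library was left out (0.094 to 0.21). All SM-Cn-/- libraries at 24 h lay below their untreated group (-0.67, adjusted p = 0.116).

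Between genotypes, Col15a1 was lower in SM-Cn-/- at 2 h (-1.42, SE 0.19, adjusted p = 8.66e-05), 6 h (-1.81, SE 0.19, adjusted p = 7.5e-06) and 24 h (-1.88, SE 0.22, adjusted p = 2.81e-05), and these 3 calls held under each alternative and with each library left out. Untreated libraries did not overlap either, at -0.37 (95% interval -0.81 to 0.08, adjusted p = 0.979). The response at 24 h differed by -1.52, SE 0.30, adjusted p = 0.0266. That call was lost in 6 of 10 fits that left a library out, with the largest p, 0.16, without Cn-Ctl untreated replicate 2. The response of Col5a2 differed by -1.38, SE 0.31, adjusted p = 0.0416, kept in 1 of 10 such fits, with the largest p, 0.22, without the same library. Without Cn-Ctl 24 h replicate 3, either untreated Cn-Ctl library, SM-Cn-/- 24 h replicate 1 or 2 or SM-Cn-/- untreated replicate 2 no chain passed, and without Cn-Ctl 24 h replicate 2 there were 5.

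The other endostatin-forming chain, Col18a1, rose in both genotypes. In Cn-Ctl it was 532 and 623 untreated, 1285, 1274 and 867 at 2 h, 1219, 1627 and 1904 at 6 h and 1789 and 1182 at 24 h. The rise passed at each time, with 0.96, adjusted p = 0.0262 at 2 h, 1.44, adjusted p = 0.00178 at 6 h and 1.34, adjusted p = 0.00661 at 24 h, and was lost each time without untreated replicate 2 (adjusted p 0.23, 0.057 and 0.092). Col18a1 in SM-Cn-/- was 477, 581 and 497 untreated, 539, 533 and 974 at 2 h, 1011, 1190.1 and 1044 at 6 h and 1081, 924 and 1101 at 24 h. It was higher at 6 h (1.06, adjusted p = 0.0168) and 24 h (0.998, adjusted p = 0.0423). The 24 h call in SM-Cn-/- was lost whichever library was left out (adjusted p 0.079 to 0.17), the 6 h call without SM-Cn-/- 6 h replicate 2 or untreated replicate 1 or 3 (0.089, 0.06 and 0.073). The response at 24 h differed by -0.34 (95% interval -1.10 to 0.42, adjusted p = 0.801).

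Col6a3, the largest chain of the type VI filaments, was 373 and 351 in untreated Cn-Ctl, 525, 546 and 669.8 at 2 h, 375, 452 and 459 at 6 h and 413 and 597 at 24 h. Col6a3 in SM-Cn-/- was 275, 344 and 358 untreated, 379.9, 407 and 358 at 2 h, 289, 223 and 182 at 6 h and 198, 212 and 161 at 24 h. The fall at 24 h (-0.77, adjusted p = 0.0456) was lost in 5 of 6 fits without a library (largest p 0.21, without SM-Cn-/- 24 h replicate 3). SM-Cn-/- was below Cn-Ctl at 6 h (-0.91, adjusted p = 0.00752, and 0.075 without SM-Cn-/- 6 h replicate 3) and at 24 h (-1.39, SE 0.20, adjusted p = 0.000318), the latter under each alternative and without any 1 library. The difference in response at 24 h was -1.23 (adjusted p = 0.0547). Col6a1 and Col6a2, which join Col6a3 in 1 molecule, passed none of the genotype comparisons.

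**Figure D2:**
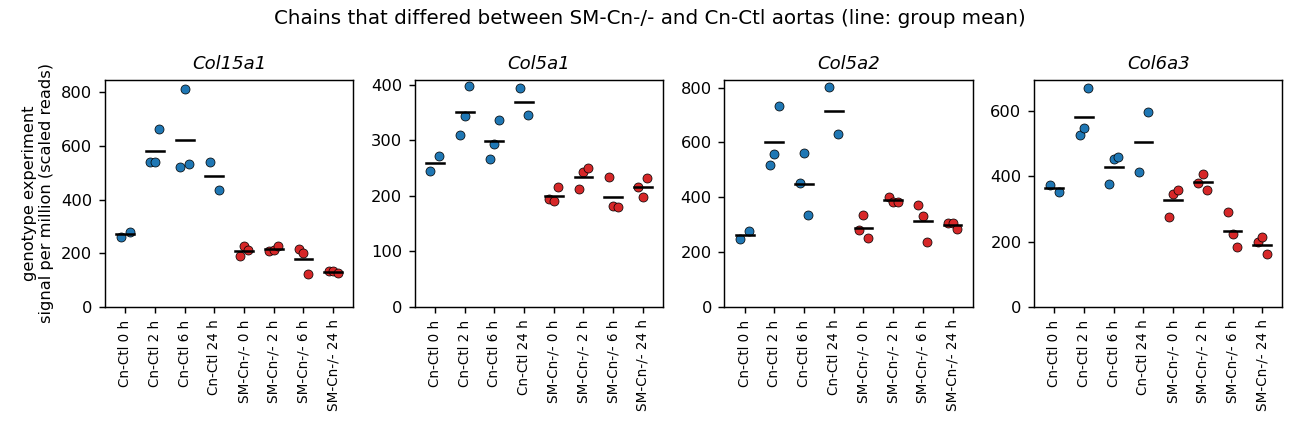
Signal (scaled reads per 1000000, linear axes from 0) of Col15a1, Col5a1, Col5a2 and Col6a3 in each library of the genotype experiment, blue for Cn-Ctl and red for SM-Cn-/-, with a line at each group mean and 0 h for aortas without Ang-II. Col15a1 is between 435 and 813 in every Ang-II-treated Cn-Ctl library and between 122 and 228 in every treated SM-Cn-/- library.

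In the basement membrane network, Col4a1 was 633 and 574 in untreated Cn-Ctl, 1105, 1101 and 911 at 2 h, 1073, 1296 and 1132 at 6 h and 1165 and 1022 at 24 h. Every treated library was above the untreated ones. The log2 fold change was 0.78, adjusted p = 0.0183 at 2 h, 0.95, adjusted p = 0.00663 at 6 h and 0.86, adjusted p = 0.0215 at 24 h. In SM-Cn-/- Col4a1 was 529.8, 506 and 528 untreated, 682, 686 and 811 at 2 h, 903, 803 and 613 at 6 h and 816, 762 and 532 at 24 h; at 24 h all 3 were above the untreated group without passing the test (0.41, adjusted p = 0.364). Each of the Cn-Ctl calls was lost when either untreated library was left out (adjusted p 0.057 to 0.21).

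Col4a2, which joins Col4a1 in the main type IV network, was 468 and 454 in untreated Cn-Ctl, 749.9, 778 and 579.7 at 2 h, 668, 791 and 865 at 6 h and 1008 and 785 at 24 h. The rise passed at 6 h (0.74, adjusted p = 0.0489) and 24 h (0.95, adjusted p = 0.0165). At 6 h it was kept in 1 of 5 fits without a library (without untreated replicate 2 or 3 or 6 h replicate 2 or 3 the adjusted p was 0.23, 0.29, 0.10 and 0.15) and in 6 of 11 alternatives, and was lost with edgeR, quantile normalization and scaling to totals (0.059, 0.14 and 0.11), with all genes listed (0.057) and with only the groups compared (0.16). At 24 h it was kept in 1 of 4 such fits (0.10, 0.12 and 0.091 without untreated replicate 2 or 3 or 24 h replicate 2) and lost with only the groups compared (0.12). SM-Cn-/- libraries had 392, 456 and 419.9 untreated, 424, 457 and 571 at 2 h, 628, 544 and 469 at 6 h and 642, 585 and 403 at 24 h. Col4a2 was below Cn-Ctl at 24 h (-0.74, adjusted p = 0.0434), a call kept in 1 of 5 fits without a library (0.22 without Cn-Ctl 24 h replicate 2, 0.19 without SM-Cn-/- 24 h replicate 3). The log2 ratio of Col4a1 to Col4a2 stayed between 0.15 and 0.71 in all genotype libraries.

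Col4a5 and Col4a6, whose chains form another type IV network found around smooth muscle, had less signal in Cn-Ctl at 24 h than untreated. Col4a6 was 213 and 269 untreated, 251, 291 and 208 at 2 h, 204, 199.9 and 147 at 6 h and 156 and 73.1 at 24 h, a fall that passed at 24 h (-1.16, SE 0.27, adjusted p = 0.0143). Col4a6 in SM-Cn-/- was 250.5, 294 and 264 untreated, 271, 289 and 284 at 2 h, 224, 239 and 223 at 6 h and 217, 206 and 335 at 24 h. The last group overlapped with untreated and was above Cn-Ctl at 24 h (1.20, SE 0.25, adjusted p = 0.00559). Both calls rested on Cn-Ctl 24 h replicate 3: without it the adjusted p was 0.34 for the fall and 0.28 between genotypes, and the fall was also lost without untreated replicate 3 (0.16). Col4a5 in Cn-Ctl was 318 and 316 untreated and 238 and 136 at 24 h (-0.82, adjusted p = 0.101). Together Col4a5 and Col4a6 made 31.9% to 35.7% of type IV signal in untreated Cn-Ctl and 10.3% to 15.1% at 24 h, and 34.2% to 38.4% and 25.5% to 39.1% in SM-Cn-/-.

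**Figure D3:**
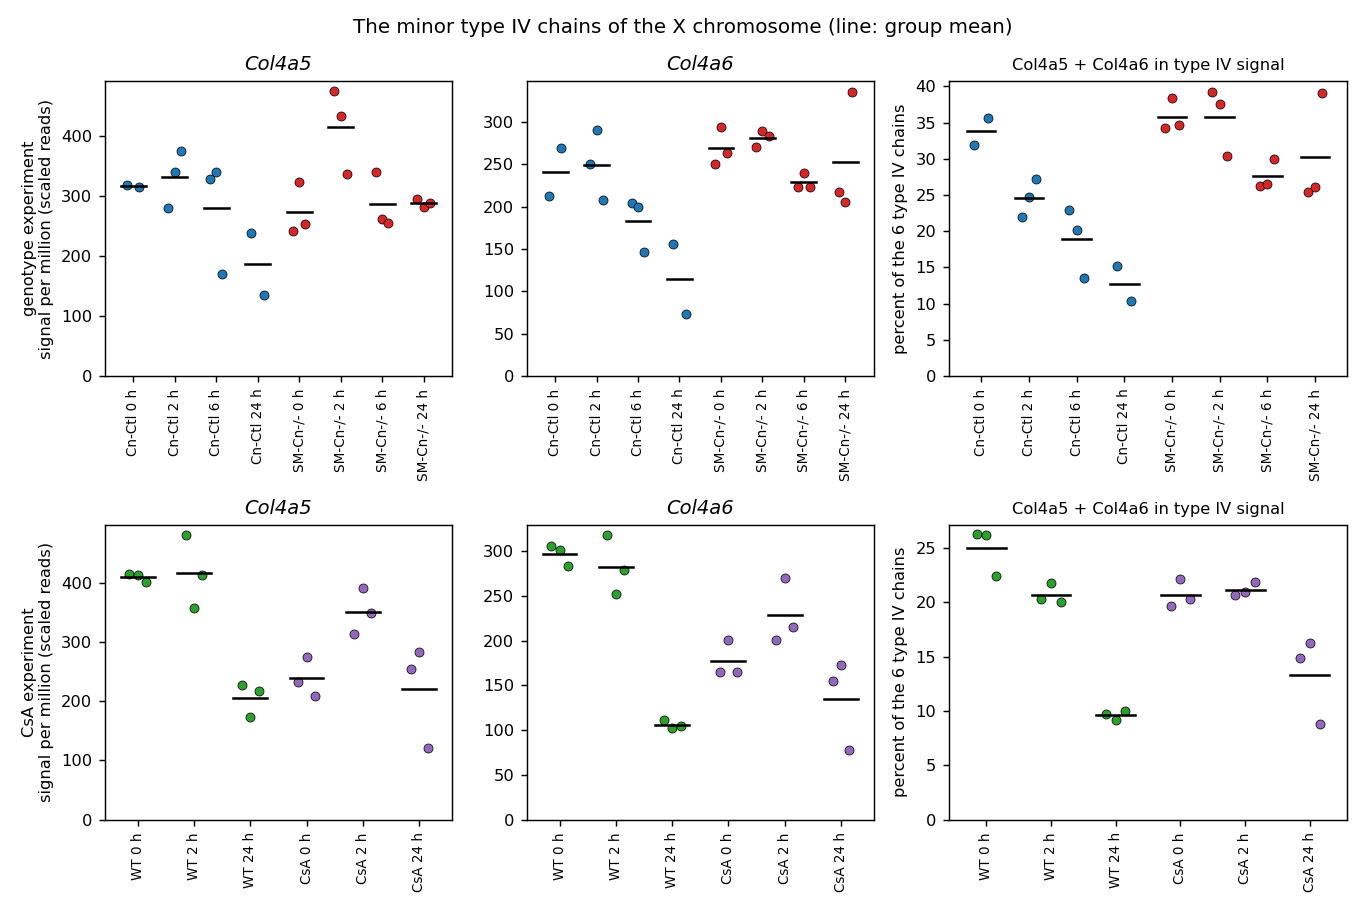
Signal of Col4a5 and Col4a6 (scaled reads per 1000000), and their sum as a percent of the signal of all 6 type IV chains, in each library of both experiments (linear axes, line at the group mean, 0 h for aortas without Ang-II). The percent at 24 h lies between 9.15 and 15.1 in Cn-Ctl and WT, between 8.81 and 16.3 in CsA and between 25.5 and 39.1 in SM-Cn-/-.

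Among weaker chains, Col6a6, a type VI chain, was 18.6 and 13.2 in untreated Cn-Ctl and 3.96 and 1.16 at 24 h (-2.57, SE 0.52, adjusted p = 0.00511), against 36.2, 18.2 and 16.7 untreated and 14.3, 14.8 and 12 at 24 h in SM-Cn-/-. The genotypes differed at 24 h (2.38, adjusted p = 0.00427). Without Cn-Ctl 24 h replicate 3 the adjusted p was 0.14 for the fall and 0.18 between genotypes, and without untreated replicate 2 it was 0.077 for the fall. Col12a1, which links fibrils to their surroundings, was 17.3 and 9.22 untreated, 28.4, 27.4 and 38.7 at 6 h and 40.6 and 33.8 at 24 h in Cn-Ctl. It was higher at 6 h (1.27, adjusted p = 0.0275) and 24 h (1.51, adjusted p = 0.0139). Col16a1 rose at 2 h (1.19, adjusted p = 0.036) and 24 h (1.52, adjusted p = 0.0164). Without untreated replicate 3 the Col12a1 p was 0.45 at 6 h and 0.21 at 24 h, and the Col16a1 calls were lost whichever library was left out. The transmembrane Col13a1 was called lower at 2 h (-2.19, adjusted p = 0.044) on a signal of 2.69 and 2.46 untreated and 0.0997, 0.0788 and 0.383 at 2 h, near the value of a library without reads, and the call was lost whichever library was left out. No call was made for the remaining chains in Cn-Ctl.

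Without Ang-II no chain differed between SM-Cn-/- and Cn-Ctl by limma, DESeq2 or edgeR, with 5 of 40 at an unadjusted p under 0.05, and 0.00693% of all genes were called in each direction. At 2 h 2 chains were lower in SM-Cn-/- (of all genes 0.728% higher and 2.97% lower), at 6 h 3 were lower (0.534% and 1.44%), and at 24 h 2 were higher and 6 lower (2.27% and 2.68%); without Cn-Ctl 24 h replicate 3 the last count was 4, and without SM-Cn-/- 6 h replicate 3 the 6 h count was 1. At 2 h it was 1 without Cn-Ctl replicate 2 or SM-Cn-/- replicate 1 or 2, and 4 without SM-Cn-/- replicate 3. With Ang-II, SM-Cn-/- showed no chain called at 2 h by the same 3 tools (6 at an unadjusted p under 0.05; of all genes 0.984% higher and 0.146% lower), 1 at 6 h (1.5% and 0.846%) and 1 higher and 1 lower at 24 h (0.638% and 0.153%), where equal totals left 1 lower. The test of a difference in response called 2 chains lower at 24 h (0.159% of all genes higher and 0.354% lower), and none at 2 h or 6 h by limma or edgeR, with 1 at each by DESeq2 and 4 at each at an unadjusted p under 0.05 (0.0208% and 0.492% at 2 h, 0% and 0.0624% at 6 h). The comparisons within and between genotypes share libraries.

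Cell type markers differed beside some of these results, and their part in them was not tested. Without Ang-II the 6 endothelial markers summed to 566.5 to 736.4 in SM-Cn-/- and 322.9 to 434.5 in Cn-Ctl, the 6 smooth muscle markers to 20880 to 24330 and 28540 to 29140, and the 5 macrophage markers to 114.9 to 213 and 64.33 to 93.58. None of these groups overlapped, though no single marker passed the test. At 2 h the endothelial sum was 662.7 to 866.7 in SM-Cn-/- and 299.5 to 554.4 in Cn-Ctl (1 of 6 called higher) and the smooth muscle sum 25340 to 31710 and 27300 to 35480 (1 of 6 called lower). At 6 h the endothelial sums were 579.1 to 1319 and 486.2 to 606.8, with overlap, and the smooth muscle sums 23120 to 28970 and 32210 to 33880, without overlap and with none of the 6 markers called. At 24 h the 6 endothelial markers summed to 1098 to 1165 in SM-Cn-/- and 446.6 to 467.7 in Cn-Ctl, 3 of 6 called higher. At this time smooth muscle markers summed to 24550 to 27350 and 27290 to 49350, 1 of 6 called lower. The 7 adventitial fibroblast markers summed to 1748 to 2398 in SM-Cn-/- and 1362 to 2251 in Cn-Ctl at 24 h (1 of 7 called lower), and to 908.6 to 1482 in untreated Cn-Ctl and 1636 to 2134 at 2 h, with 1 of 7 called higher at 2 h. At 6 h in Cn-Ctl the fibroblast sum was 1729 to 3300, also above untreated. Macrophage markers summed to 144.6 to 222.9 in Cn-Ctl at 24 h, above untreated Cn-Ctl, with none of 5 called. In SM-Cn-/- at 24 h the 3 blood markers summed to 422.7 to 1947, against 65.7 to 398.7 untreated. The endothelial and smooth muscle sums of that group also lay above untreated SM-Cn-/-, and its fibroblast sum overlapped (1206 to 1918 untreated). In a bulk sample, fewer cells of a type and less RNA per cell cannot be told apart.

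In WT aortas of the CsA experiment, 17 of 37 chains differed between 24 h of Ang-II and untreated, 7 higher and 10 lower. The chains that rose were Col12a1, Col5a2, Col8a1, Col4a1, Col4a2, Col1a1 and Col16a1, and those that fell were the type IV chains Col4a4, Col4a5 and Col4a6, the fibril-associated Col14a1, Col19a1, Col20a1 and Col22a1, the fibrillar Col11a2 and Col27a1, and Col6a6. Of all 13738 genes tested, 18.1% were called higher and 16.9% lower, and the median over the chains was 0.06. By class, 2 of 10 fibrillar chains were higher and 2 lower, 2 of 6 type IV chains higher and 3 lower, 2 of 7 fibril-associated chains higher and 4 lower, 1 of 6 type VI chains lower and neither endostatin-forming chain called. Of the 17 chains, 11 kept their call under each alternative and each library left out. The 5 macrophage markers were all higher at 24 h (sum 161.7 to 250.4 against 67.16 to 101.3). Of 6 smooth muscle markers 3 were lower, with sums that overlapped (23740 to 33080 against 25560 to 35070). Endothelial sums were 644.1 to 760.6 against 368 to 625.2, adipose sums 779.9 to 844.3 against 350.6 to 664.5. Chondrocyte sums were 62.92 to 71.41 against 77.97 to 82.71, also without overlap. Adventitial fibroblast sums overlapped (2113 to 2820 against 1865 to 2728). The part of these markers was not tested.

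Col12a1 was 22.6, 23.3 and 24.6 in untreated WT, 50.8, 25.2 and 42.3 at 2 h and 76.9, 78.8 and 91.7 at 24 h, with all libraries at 24 h above all others (1.79, SE 0.20, adjusted p = 6.98e-06). Col5a2 was 379, 334 and 329.8 untreated, 524, 351 and 455 at 2 h and 754, 754 and 716 at 24 h (1.09, adjusted p = 0.000239). Col8a1, a short chain that smooth muscle makes in injured vessels, was 26.7, 22.2 and 31.1 untreated and 47.3, 53 and 62.5 at 24 h (1.02, adjusted p = 0.000363). In each of these rises the untreated and 24 h libraries did not overlap.

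Col1a1 was 1709, 1304 and 1367 in untreated WT, 1560.3, 1378 and 1456 at 2 h and 1988, 2305 and 2068 at 24 h (0.55, adjusted p = 0.0174). That call was lost without WT untreated replicate 2 or 3 or 24 h replicate 2 (adjusted p 0.078, 0.059 and 0.071). Col1a2 was 2529, 2217 and 2066 untreated, 2521, 2060.2 and 2333 at 2 h and 2148, 2124 and 2138 at 24 h (-0.08, 95% interval -0.46 to 0.29), and the groups overlapped. The log2 ratio of Col1a1 to Col1a2 was -0.77 to -0.57 untreated and -0.11 to 0.12 at 24 h. Col3a1 was 2522, 1973 and 1829.7 untreated, 2051, 1715 and 1934 at 2 h and 2332, 2455 and 2772 at 24 h, also with overlap (0.27, adjusted p = 0.213).

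Col4a1 was 1079, 1087 and 1248 in untreated WT, 1790.2, 1265 and 1584 at 2 h and 1646, 1454 and 1528 at 24 h (0.44, adjusted p = 0.017), lost without WT untreated replicate 1 or 2 or 24 h replicate 1 (0.06, 0.063 and 0.06). Col4a2 was 871, 879 and 1077 untreated, 1308, 875 and 1128 at 2 h and 1453, 1253 and 1345 at 24 h (0.52, adjusted p = 0.0125, and 0.052 without WT untreated replicate 2). Against these rises, Col4a6 went from 306, 301 and 283 to 111, 102 and 105 at 24 h (-1.48, SE 0.21, adjusted p = 6.35e-05) and Col4a5 from 415, 413 and 402 to 227, 174 and 217 (-1.002, SE 0.23, adjusted p = 0.00306). At 2 h their log2 fold changes were small and did not pass the test (-0.08 and 0.01; 95% interval -0.52 to 0.37 and 95% interval -0.48 to 0.50). The share of type IV signal in these chains was 22.4% to 26.3% untreated, 20.0% to 21.8% at 2 h and 9.15% to 9.95% at 24 h.

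Among the other chains that fell in WT, the fibrillar Col27a1 was 56, 54.7 and 48.6 untreated and 18, 24.3 and 25.4 at 24 h (-1.23, SE 0.14, adjusted p = 9.62e-06), and Col6a6 was 24.4, 18.6 and 13.4 untreated and 5.36, 5.99 and 4.5 at 24 h (-1.71, SE 0.21, adjusted p = 1.7e-05). The remaining log2 fold changes were -0.85, adjusted p = 0.000406 for Col20a1, -0.64, adjusted p = 0.00138 for Col14a1, -1.11, adjusted p = 0.00476 for Col22a1, -0.89, adjusted p = 0.00763 for Col4a4, -0.59, adjusted p = 0.019 for Col19a1, -0.70, adjusted p = 0.0363 for Col11a2 and, higher, 0.37, adjusted p = 0.0138 for Col16a1. Col19a1 (0.08 without WT untreated replicate 3), Col11a2 (0.17 without untreated replicate 1) and Col16a1 (0.057 without untreated replicate 2 or 3) did not keep their calls with each library left out.

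At 2 h WT showed Col12a1 (0.68, adjusted p = 0.0205) and Col4a1 (0.43, adjusted p = 0.0288) higher, 2 of 37 chains, where 11.4% of all genes were called higher and 10% lower. Neither call held without WT 2 h replicate 3 or WT untreated replicate 1 or 2, which left 0 chains called. Total signal rose at 2 h (mean 1116200 against 912070), and with libraries scaled to equal totals the median of all genes was -0.25 and the split turned to 0 higher and 3 lower. Quantile normalization gave 1 higher and 2 lower.

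**Figure D4:**
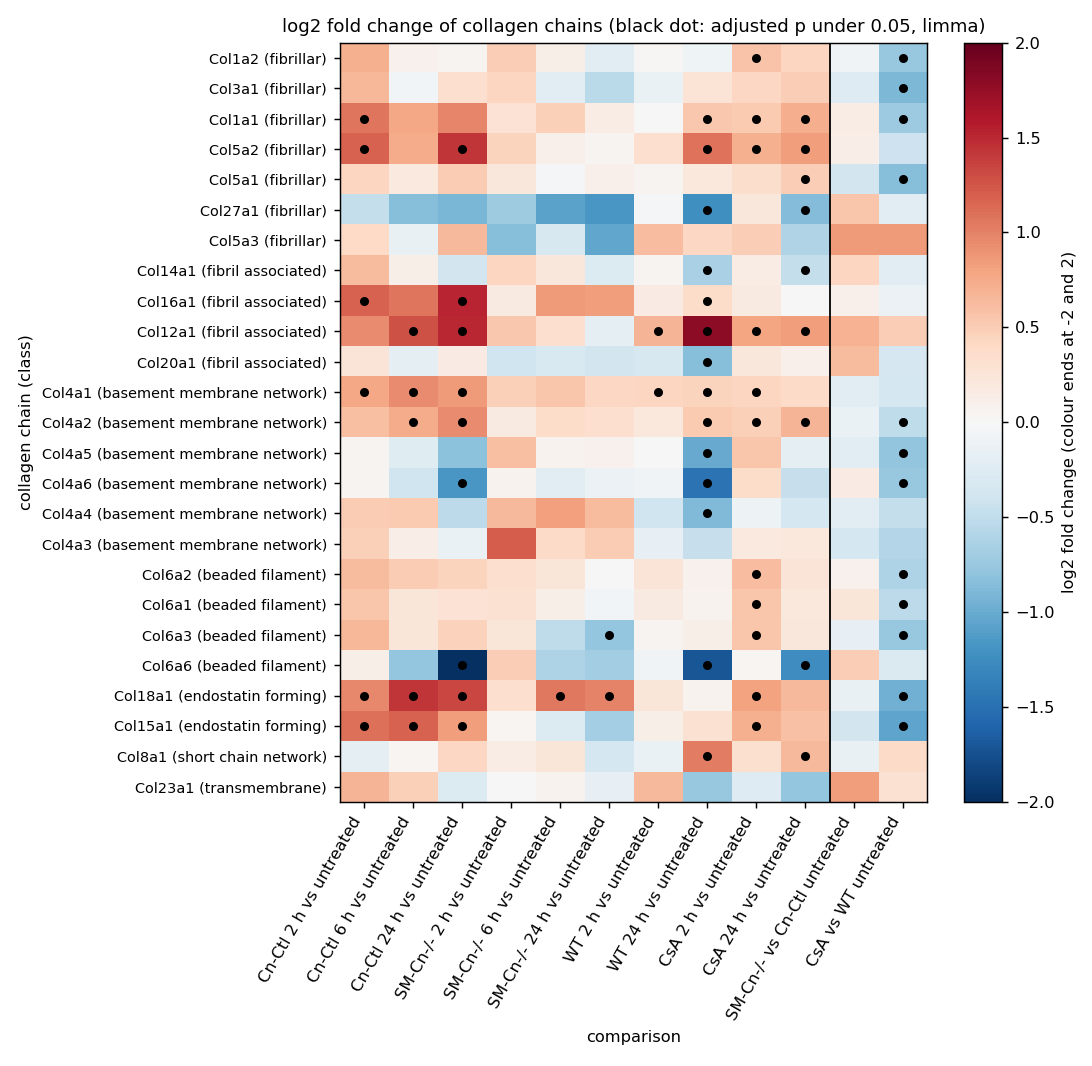
Log2 fold change (colour) of the 25 chains with a mean signal of at least 5 in the genotype experiment, in 12 comparisons of Ang-II with untreated and of SM-Cn-/- with Cn-Ctl or CsA with WT; a black dot marks an adjusted p under 0.05 (limma). Col12a1 and Col5a2 are higher, and Col4a6 and Col6a6 lower, at 24 h in Cn-Ctl and WT.

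Collagen signal was lower in CsA aortas before any Ang-II was given. Against untreated WT, 12 of 37 chains were lower and none higher in untreated CsA aortas, where 13.9% of all genes were called higher and 11.4% lower, and the median over the chains was -0.34. The 12 were type I (Col1a1, Col1a2), type III (Col3a1), the type V chain Col5a1, type VI (Col6a1, Col6a2, Col6a3), Col15a1 and Col18a1, and the type IV chains Col4a2, Col4a5 and Col4a6. Quantile normalization moved the median of all genes to -0.11 and called 15 chains, DESeq2 called 13 and edgeR 12, and 20 of 37 had an unadjusted p under 0.05 in either direction. The count was 10 to 12 with any 1 library left out, and 9 chains kept their call throughout, the exceptions being the 3 type IV chains (largest p 0.099 for Col4a2 without WT untreated replicate 3, 0.08 for Col4a5 and 0.059 for Col4a6 without CsA untreated replicate 3).

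Col5a1 was 524, 482 and 509.8 in WT and 294, 293 and 255 in CsA (-0.85, SE 0.12, adjusted p = 0.000655). Col3a1 was 2522, 1973 and 1829.7 in WT and 1085, 1228 and 1050.4 in CsA (-0.90, SE 0.16, adjusted p = 0.00163). Col15a1 was 416, 414 and 438 in WT and 184, 221 and 209 in CsA (-1.05, SE 0.23, adjusted p = 0.00485). Col6a3 was 467, 488 and 522 in WT and 315, 315 and 249.7 in CsA (-0.75, SE 0.16, adjusted p = 0.004). For each of these chains every CsA library lay below the lowest WT library.

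Type I was lower too: untreated Col1a1 was 878, 934 and 819.9 in CsA (-0.73, adjusted p = 0.00562) and Col1a2 1309.9, 1424 and 1288 (-0.76, adjusted p = 0.00646), against the WT values above. Col4a1 was 907, 950.0 and 822 (-0.35, adjusted p = 0.066) and Col4a2 689.7, 676 and 611 (-0.51, adjusted p = 0.0209). The other calls were -0.96, adjusted p = 0.00494 for Col18a1, -0.62, adjusted p = 0.00518 for Col6a2, -0.52, adjusted p = 0.0103 for Col6a1, -0.75, adjusted p = 0.0165 for Col4a6 and -0.79, adjusted p = 0.0207 for Col4a5. The share of all signal in collagen chains was 0.869% to 1.03% in CsA and 1.49% to 1.71% in WT.

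Marker genes differed widely between the same untreated groups, and their part in the lower collagen signal was not tested. All 6 smooth muscle markers were lower in CsA (median -0.76; sum 16240 to 18310 against 25560 to 35070). All 6 endothelial (968.6 to 1113 against 368 to 625.2), all 5 macrophage (174.8 to 261.3 against 67.16 to 101.3) and all 5 adipose markers (2330 to 4165 against 350.6 to 664.5) were higher. Of 7 adventitial fibroblast markers 1 was higher, and their sum was 2816 to 3132 against 1865 to 2728. The CsA mice also carried a pump that the WT mice did not, so that the drug and the pump cannot be told apart.

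**Figure D5:**
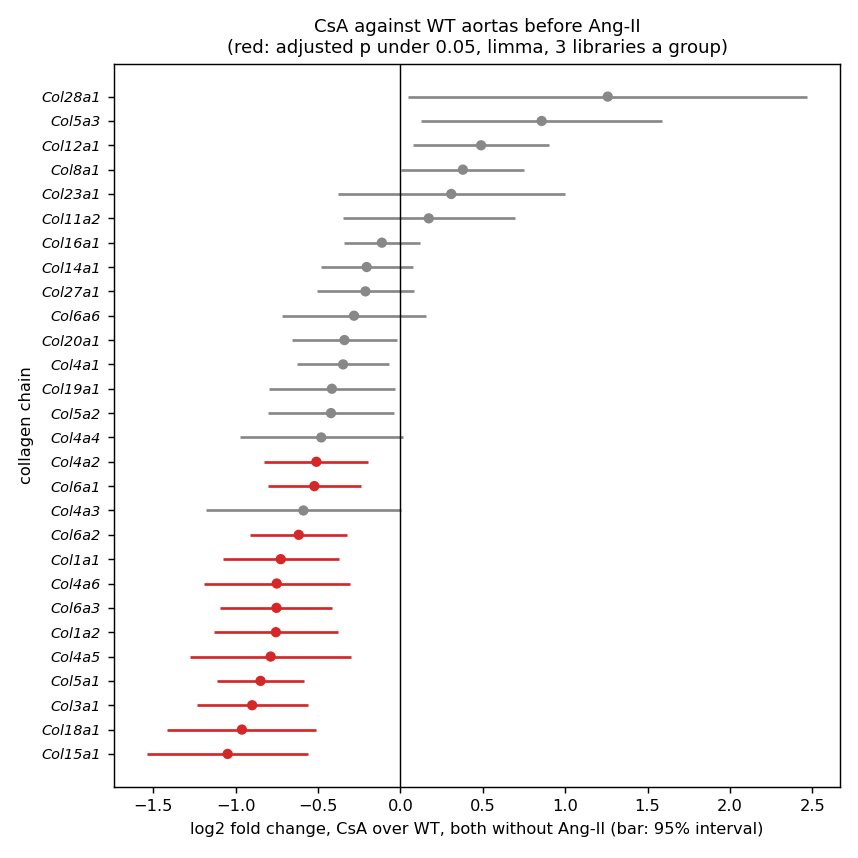
Log2 fold change, CsA over WT without Ang-II, of each collagen chain with a mean signal of at least 5 in the CsA experiment (point, with its 95% interval as a bar, 3 libraries a group; red where the adjusted p from limma is under 0.05). All 12 red points lie below 0, from -0.51 for Col4a2 to -1.05 for Col15a1.

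In CsA aortas, 11 of 37 chains were higher after 2 h of Ang-II than untreated, where 12.3% of all genes were called higher and 7.84% lower. They were the 3 type VI chains, type I, Col4a1, Col4a2, Col5a2, Col12a1, Col15a1 and Col18a1. Col6a2 was 444, 401 and 422 untreated and 602, 726 and 610.2 at 2 h (0.61, SE 0.14, adjusted p = 0.00647), Col6a1 399.8, 365 and 379 untreated and 520.2, 619 and 537 at 2 h (0.55, adjusted p = 0.00959), and Col12a1 35.5, 34.5 and 29.8 untreated and 55.8, 71.4 and 48.4 at 2 h (0.79, adjusted p = 0.0106). Untreated and 2 h libraries did not overlap for any of them. The others lay between 0.42, adjusted p = 0.0338 for Col4a1 and 0.80, adjusted p = 0.0158 for Col18a1. Col1a1 was 1028, 1436 and 1356 at 2 h, Col1a2 1615, 2241 and 2161, Col3a1 1258, 1681 and 1586, Col4a1 1092, 1383 and 1136 and Col4a2 858, 1058 and 834.

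These CsA calls at 2 h depended on single libraries. Without CsA 2 h replicate 2 there was 1 chain, Col6a2, and without untreated replicate 1, 2 or 3 there were 6, 7 and 4. Scaling to equal totals left 5 chains higher (median of all genes -0.22) and quantile normalization 2. With the replicate number as a block, which treats same-numbered samples as pairs, 9 chains were called, and Col4a1, Col4a2 and Col15a1 were not among them. Markers moved between the same CsA groups, and their part in the rise was not tested. Smooth muscle markers summed to 19940 to 25740 at 2 h and 16240 to 18310 untreated (1 of 6 called higher), macrophage markers to 96.59 to 108.7 and 174.8 to 261.3 (1 of 5 called lower), and adventitial fibroblast markers to 2067 to 2518 and 2816 to 3132 (0 of 7 called), none of these with overlap.

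At 24 h, CsA aortas had 6 chains higher (Col5a2, Col4a2, Col1a1, Col12a1, Col5a1 and Col8a1) and 4 lower (Col27a1, Col6a6, Col11a2 and Col14a1), where 5.2% of all genes were called higher and 3.77% lower. Col27a1 was 50.5, 46.9 and 40.3 untreated and 31.6, 21.7 and 22.7 at 24 h (-0.86, SE 0.14, adjusted p = 0.0023), and Col6a6 14.4, 16.5 and 14.1 untreated and 6.84, 5.73 and 5.57 at 24 h (-1.24, SE 0.21, adjusted p = 0.00248); both held under each alternative and each library left out. Col5a2 was 241, 302 and 239 untreated, 357, 484 and 449 at 2 h and 557, 527 and 338 at 24 h (0.84, adjusted p = 0.0106). The other calls were 0.68, adjusted p = 0.0112 for Col4a2, 0.73, adjusted p = 0.014 for Col1a1, 0.84, adjusted p = 0.016 for Col12a1, 0.50, adjusted p = 0.0223 for Col5a1, 0.65, adjusted p = 0.0328 for Col8a1, -0.98, adjusted p = 0.0226 for Col11a2 and -0.48, adjusted p = 0.0329 for Col14a1.

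CsA 24 h replicate 3 stood apart from the other libraries of its group in many chains. At 24 h Col1a1 was 1684, 1618 and 1124, Col1a2 2129.9, 2085 and 1330.4, Col3a1 1774, 1669.8 and 1329, Col4a1 1176, 1181 and 1116, Col4a2 1131, 1132 and 924, Col18a1 2155, 2244 and 1219 and Col15a1 429, 333 and 200.3, with the last value lowest in each. Without it 15 chains were called, without replicate 1 only 3 and without replicate 2 only 4, and 6 without untreated replicate 3. Col4a6 was 165, 201 and 165 untreated and 155, 173 and 78.3 at 24 h (-0.46, adjusted p = 0.176). Col4a5 was 233, 274 and 209 untreated and 255, 283 and 121 at 24 h (-0.20, adjusted p = 0.61). At 24 h in CsA 2 of 6 smooth muscle markers were called higher (sum 18940 to 27510), and 2 of 6 endothelial (761.3 to 1275) and 1 of 7 fibroblast markers (2124 to 2661) lower than untreated. The part of these markers was not tested.

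Under Ang-II few chains differed between CsA and WT. At 2 h Col8a1 was 25.6, 22 and 25 in WT and 40.4, 55.8 and 36 in CsA (0.83, adjusted p = 0.0381), and Col5a1 587, 469.5 and 527 in WT and 339, 377 and 361 in CsA (-0.55, adjusted p = 0.0401), 2 of 37 chains where 0.393% of all genes were called higher and 0.939% lower. In all, 0 or 1 chain was called whichever library was left out, and equal totals left 1 higher. At 24 h Col5a1 (617, 571 and 562 in WT, 489, 391 and 325 in CsA; -0.56, adjusted p = 0.019) and Col16a1 (65.9, 68.9 and 73.6 in WT, 53.8, 44.9 and 50.02 in CsA; -0.49, adjusted p = 0.02) were lower in CsA. So were Col3a1 (-0.67, adjusted p = 0.0244), Col6a3 (-0.65, adjusted p = 0.029) and Col5a2 (-0.68, adjusted p = 0.0394), and Col20a1 was higher (0.61, adjusted p = 0.0277), where 2.03% of all genes were called higher and 3.54% lower. No chain was called at 24 h without CsA 24 h replicate 2 or WT 24 h replicate 2, 2 were without WT replicate 1 and 3 without CsA replicate 3, and 1 higher and 10 lower were called with libraries scaled to equal totals, and 4 lower after quantile normalization. Markers still set CsA and WT apart under Ang-II, and their part was not tested. At 2 h smooth muscle markers summed to 19940 to 25740 in CsA and 28170 to 35340 in WT, endothelial to 795.2 to 973.4 and 561 to 616.9, and adipose to 1004 to 3002 and 517.3 to 850.8, without overlap and with no single marker of the 3 lists called. At 24 h adipose markers summed to 1193 to 3786 in CsA and 779.9 to 844.3 in WT (1 of 5 called higher), endothelial markers to 761.3 to 1275 and 644.1 to 760.6 (0 of 6 called), and 1 of 7 fibroblast markers was called lower.

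The response to 24 h of Ang-II differed between CsA and WT for 3 of 37 chains (of all genes, 4.53% higher and 4.89% lower). Col20a1, a fibril-associated chain, was 8.1, 8.04 and 7.81 untreated and 3.92, 4.12 and 4.58 at 24 h in WT (-0.85, adjusted p = 0.000406), and 7.51, 6.3 and 5.02 untreated and 7.03, 6.84 and 6.18 at 24 h in CsA (0.10, adjusted p = 0.707). Its responses differed by 0.95, SE 0.21, adjusted p = 0.0144, in each of the 12 fits without a library and under each alternative. The change of Col4a6 was less negative in CsA (difference 1.02, SE 0.30, adjusted p = 0.0411) and the rise of Col12a1 was smaller (-0.95, SE 0.28, adjusted p = 0.0423), whose signal in CsA at 24 h was 63.8, 51.1 and 65.2. Those calls held in 2 and 1 of 12 fits, 6 chains passed without CsA 24 h replicate 3, and without CsA 24 h replicate 2 the adjusted p was 0.11 for Col4a6 and 0.12 for Col12a1. Quantile normalization gave 1 higher and 1 lower. At 2 h no chain differed in response by limma, DESeq2 or edgeR (5 at an unadjusted p under 0.05; 0.0218% of all genes higher and 0.124% lower).

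The list of enzymes and chaperones that modify and fold collagen chains held 19 genes, and all were tested. In Cn-Ctl at 2 h 3 were higher by the same test: P4ha1 (1.76) and P4ha2 (1.74), catalytic subunits of prolyl 4-hydroxylase, and the collagen chaperone Serpinh1 (1.03), where 4.72% of all genes were called higher. At 24 h in Cn-Ctl 6 were higher and 1 lower (3.22% and 2.39% of all genes). In WT at 24 h 7 were higher and 4 lower (18.1% and 16.9% of all genes), with P4ha3 (2.12) and P3h3 (-0.78) at the ends. In CsA at 24 h 6 were higher (5.2% of all genes), among them Fkbp10 (0.92). In untreated CsA against WT 10 were lower (11.4% of all genes), from -1.06 for P3h2 to -0.31 for P4hb.

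Between SM-Cn-/- and Cn-Ctl, 5 of these 19 genes were lower at 2 h and 4 at 24 h, where 2.97% and 2.68% of all genes were called lower. P3h2, a prolyl 3-hydroxylase of basement membrane collagen, was lower without Ang-II (-1.60, adjusted p = 0.00911) and at 2 h (-2.28, adjusted p = 8.1e-07), 6 h (-2.64, adjusted p = 2.07e-07) and 24 h (-1.47, adjusted p = 0.000582). The response at 2 h differed for P4ha2 (-1.19, adjusted p = 0.0186) and Serpinh1 (-0.97, adjusted p = 0.0483), and at 24 h for Serpinh1 (-1.05, adjusted p = 0.0406). Unlike those of the collagen chains, the calls of these enzyme, chaperone and export genes were not examined under other settings or without single libraries. Of 9 genes of collagen export, 4 were higher at 24 h in WT and 4 in CsA (18.1% and 5.2% of all genes), among them Sec13 (0.51 and 0.56). In untreated CsA against WT 5 of the 9 were lower (11.4% of all genes), among them Sec24d (-0.71), which loads large cargo into transport vesicles.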

How the data were processed

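The authors aligned and counted reads with Bowtie 0.12.7 and RSEM 1.16 on GRCm38, as listed in the submitters' notes, and deposited a signal per gene and library: reads plus 0.5, divided by a scaled library size, per 1000000. From the deposited signal 100% of values returned to whole reads (within 0.01), which were used only for the DESeq2 (1.42.0) and edgeR (4.0.16) alternatives. No column of another sample was in the tables. Protein-coding genes (GENCODE M21) with a signal of at least 1 in at least 2 libraries were tested with limma 3.58.1 in R 4.3.3, on log2(signal + 0.5) with an intensity trend, 1 model per experiment over all groups, and Benjamini-Hochberg adjustment over 14424 genes (genotype) and 13738 (CsA), threshold 0.05. Rows without a name, 425 and 232, were not removed for lacking one and were filtered in the same way as the others. The scripts were tested on simulated data. Python 3.11.15, pandas 2.3.3, numpy 2.4.6 and matplotlib 3.10.9 were used for tables and figures.

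The members and gene lists were chosen with earlier results of these data known. Values in every library are given for Col1a1, Col1a2, Col3a1, Col4a1 and Col4a2, for up to 3 other chains with the lowest adjusted p in a comparison, and for chains past the test of response; others past the test are named with their fold change. Replicate numbers in the sample titles were checked for pairing by the correlation of same-numbered deviations from group means: with 3 pairs, every value was over 0.1 only for CsA at 2 h against untreated (0.169, 0.377 and 0.362). With 2 pairs this held for Cn-Ctl against untreated at 6 h (0.169 and 0.208) and 24 h (0.158 and 0.158). Alternatives were another pseudocount (2), quantile normalization, median-ratio size factors, no filter or a filter of 5, all genes listed, only the groups compared, DESeq2, edgeR, the replicate block and leaving out each library, and, chosen after seeing the data, scaling to the total signal. Single calls were followed through these alternatives for the collagen chains only, not for genes of the other lists.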

Additional observations from a re-analysis of the deposited data

Results flagged for a closer look

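Each of the following stands out because the values set groups apart in their response to 24 h of Ang-II. Between SM-Cn-/- and Cn-Ctl the test of the difference (limma, log2 scale, SM-Cn-/- minus Cn-Ctl) passed for Col15a1 (-1.52, adjusted p = 0.0266) and Col5a2 (-1.38, adjusted p = 0.0416). Col3a1 (-0.88, adjusted p = 0.455) and Col6a3 (-1.23, adjusted p = 0.0547) are listed because every Cn-Ctl library at 24 h lay above its untreated group and every SM-Cn-/- library below, while the difference itself did not pass the test.

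Between CsA and WT (CsA minus WT) it passed for Col20a1 (0.95, adjusted p = 0.0144), Col4a6 (1.02, adjusted p = 0.0411) and Col12a1 (-0.95, adjusted p = 0.0423). Col5a3 (-1.03, adjusted p = 0.192) is listed because every WT library was higher and every CsA library lower at 24 h than without Ang-II; its difference did not pass. No group had 4 or more libraries, so single libraries were not tested for distance from the rest.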

How the results depend on the processing

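Over 22 comparisons and 11 alternatives, 205 counts of chains called stayed within 1.5 times the first count, 26 were smaller and 11 larger. The cause was not tested. These counts take higher and lower chains together, and the 205 include comparisons with no chain called in either fit. They also include WT at 2 h under scaling to totals, with 2 and 3 chains, where the split turned to 0 higher and 3 lower. With only the groups compared in the fit, which leaves fewer samples for the spread, Cn-Ctl fell from 9 to 1 at 24 h and from 5 to 1 at 6 h, CsA at 24 h from 10 to 4, SM-Cn-/- against Cn-Ctl from 8 to 4 at 24 h, from 3 to 1 at 6 h and from 2 to 1 at 2 h, CsA against WT from 6 to 0 at 24 h and from 2 to 0 at 2 h, WT at 2 h from 2 to 0, and the response difference at 2 h between genotypes went from 0 to 1. DESeq2 gave 12 instead of 7 for Cn-Ctl at 2 h, 7 instead of 2 for SM-Cn-/- against Cn-Ctl at 2 h, 10 instead of 6 for CsA against WT at 24 h, 4 instead of 2 for WT at 2 h, 3 instead of 1 for SM-Cn-/- at 6 h, 4 instead of 2 for the genotype response at 24 h and 1 instead of 0 at 2 h and 6 h. Quantile normalization gave 3 for Cn-Ctl at 2 h, 2 for CsA at 2 h, 0 for CsA against WT at 2 h and 1 for SM-Cn-/- against Cn-Ctl at 2 h; under it Col1a2 in WT at 2 h turned to -0.51. Scaling to totals gave 3 for Cn-Ctl at 2 h and at 6 h, 5 for CsA at 2 h, 1 for CsA against WT at 2 h and 11 at 24 h, 1 for SM-Cn-/- at 24 h, for SM-Cn-/- against Cn-Ctl at 2 h and for the genotype response at 24 h. Scaling to totals also set the median of all genes to -0.12 for Cn-Ctl at 6 h, -0.13 for CsA at 24 h, 0.21 and 0.11 for SM-Cn-/- against Cn-Ctl at 2 h and 6 h, and 0.16 for the genotype response at 2 h. For SM-Cn-/- at 24 h, all genes listed, edgeR and median-ratio size factors gave 1; edgeR gave 1 for SM-Cn-/- against Cn-Ctl at 2 h and for the genotype response at 24 h, and median-ratio size factors 1 for that at 6 h.

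The replicate block gave 0 instead of 2 for CsA against WT at 2 h and moved no other count by over 1.5 times. The sample titles give only a replicate number, so whether same-numbered samples were paired is not known. Leaving out 1 library gave these ranges. Cn-Ctl had 2 to 5 chains at 2 h, 1 to 5 at 6 h and 3 to 4 at 24 h. SM-Cn-/- had 0 to 1 at 6 h and at 24 h. SM-Cn-/- against Cn-Ctl had 1 to 4 at 2 h, 1 to 4 at 6 h and 4 to 7 at 24 h. WT had 0 to 2 at 2 h and 12 to 16 at 24 h, and CsA 1 to 13 and 3 to 15. CsA against WT had 10 to 12 untreated, 0 to 1 at 2 h and 0 to 8 at 24 h. The response difference at 24 h had 1 to 6 for CsA and 0 to 5 for genotype, and that at 6 h 0 to 1. Where this left 1 Cn-Ctl library, it was assumed to vary like the other groups. Groups of 2 or 3 libraries, and the lower depth of the genotype experiment, limit what could be called for weak chains.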

Other observations

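Of 7 fibril-binding proteoglycans tested, Ogn and Prelp were lower after 24 h of Ang-II in WT (log2 fold change -1.90, adjusted p = 4.32e-06 and -1.07, adjusted p = 5.9e-06; limma) and in Cn-Ctl (-2.22, adjusted p = 0.00661 and -1.57, adjusted p = 0.0194), where 16.9% and 2.39% of all genes were called lower. Both log2 fold changes were less negative in CsA than in WT by the test of the response (1.12, adjusted p = 0.0202 and 0.70, adjusted p = 0.0168), and Prelp was higher in SM-Cn-/- than in Cn-Ctl at 24 h (2.27, adjusted p = 0.000654). In untreated CsA against WT, 3 of 7 were lower, where 11.4% of all genes were called lower, among them Bgn (-0.81, adjusted p = 0.00507), which encodes biglycan.

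Of 9 collagen receptors tested in the CsA experiment, Itga2 (1.45), Itgb1 (0.68) and Ddr1 (0.44) were higher and Itga1 (-0.46) and Itga10 (-0.78) lower in WT at 24 h, where 18.1% of all genes were called higher and 16.9% lower. In untreated CsA against WT 1 of the 9 was higher and 5 were lower (13.9% and 11.4% of all genes). Of the procollagen proteases and their enhancers, Tll1 (1.51), Adamts2 (0.44) and Pcolce (0.61) were higher in WT at 24 h, 3 of 7 tested beside the 18.1% of all genes. Pcolce2, an enhancer of procollagen C-proteinase, was higher in SM-Cn-/- than in Cn-Ctl at 2 h (1.07, adjusted p = 0.0029), 6 h (1.28, adjusted p = 0.00115) and 24 h (1.73, adjusted p = 0.000127). The calls for proteoglycans, receptors and proteases were not examined under the alternatives or without single libraries.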
